A study of Arabidopsis thaliana with 12 samples.

Results

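QQS (QUA-QUINE STARCH, AT3G30720) was followed through the flowers of 10 Arabidopsis thaliana accessions on 12 ATH1 arrays, as 1 of the 13286 loci with a probe set that lists no other gene. The gene was selected on its signal in these same arrays, which differed widely between accessions, so its levels and the likeness of other probe sets to it are given as descriptions without a test. The probe sets set beside it were chosen by the same signals, as those, among the 22745 others that are not Affymetrix controls, whose accession means of log2(signal + 16) run most closely with those of QQS. The constant of 16 was added to every signal before taking log2, so that very dim signals give only small spans and log2 differences. It does not keep dim probe sets from a high r, which takes no account of the size of a change.

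QQS is an orphan gene, which means that it encodes a small protein without recognisable relatives outside Arabidopsis thaliana. It was named for its effect on leaf starch, and its protein is known to bind NF-YC4, a subunit of the NF-Y transcription factor, and to shift the allocation of carbon and nitrogen between starch and protein. Its expression is known to vary between plants and natural accessions together with DNA methylation at the locus.

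The arrays carried floral RNA of 5 accessions that accumulate saiginols, a class of phenylacylated flavonols (C24, Cvi, Da, RLD and Rsch), and of 5 accessions that do not (Col-0, Ler, Sap, Stw and Ws). C24 and Col-0 were hybridized on 2 arrays each, named ExpI and ExpII, and every other accession on 1. The study lists all of them as accessions, with no transgene or treatment named for these arrays. No source says that the 2 arrays of an accession come from separate plants, so the spread between them may be technical. For 2 arrays title and ecotype label disagree, the label being RLD where the title is Sap and Sap-0 where it is Stw. Titles were followed, and counts over all probe sets are also given without both arrays.

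Signals are linear intensities scaled to a common trimmed mean of 100.01 on each array, with medians from 46 to 51.1. The 15 control probe sets for the bacterial genes Dap, Lys, Phe, Thr and Trp, which have no target in plant RNA, reached at most 9.6. They are called the bacterial controls below, and other Affymetrix controls were not used for this level. It serves here as the mark of a dim signal, and 4419 of the 22746 probe sets (19.4%) had a mean not above it. None of 7 flower identity genes (AP1, AP3, PI, AG and SEP1 to SEP3) had a probe set named for it, so the tissue could be checked only through tapetum and pollen markers. A9, a tapetum gene of the anther, lay between 247.6 and 899.2 in all accessions, and the summed signal of 4 pollen genes was 64.3 in Cvi, against 65.2 to 189.8 in the other 9 accessions.

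QQS was bright in a single accession. Its signal was 1249.8 on the Cvi array, where it exceeded 98.4% of probe sets. The Da array gave 71.7, and the remaining producers gave 10.1 and 7.9 (C24, ExpI and ExpII), 7.5 (RLD) and 6.4 (Rsch). Among non-producers the signal was 60.7 and 37.7 (Col-0, ExpI and ExpII), 21.9 (Ler), 16 (Stw), 14.3 (Sap) and 11.0 (Ws). On 9 of the 12 arrays the signal lay above the bacterial controls, and on the second C24 array, the RLD array and the Rsch array it did not, so QQS transcript was not detectable there above this level.

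**Figure D1:**
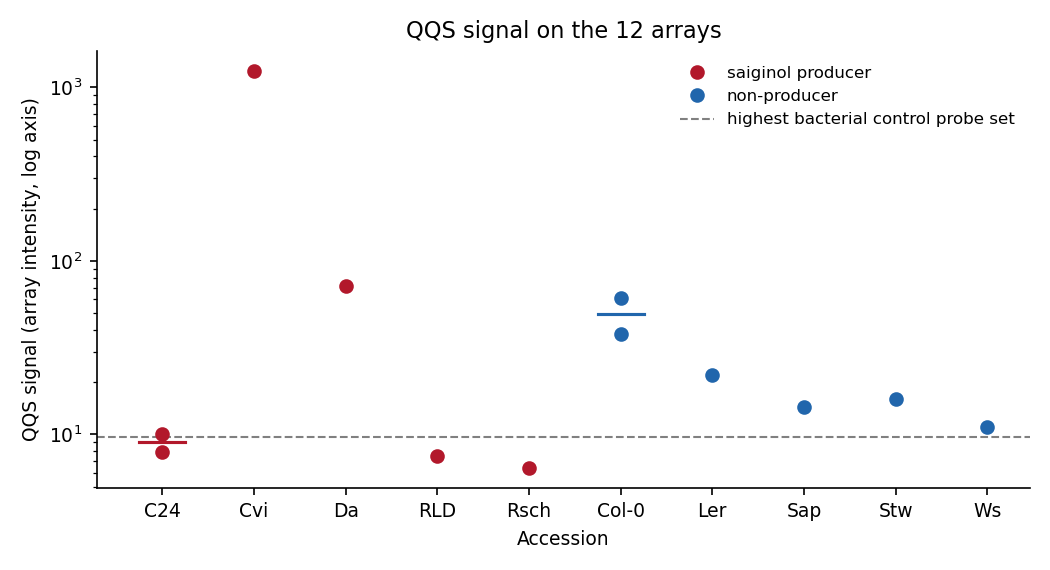
QQS signal (array intensity, log axis) on each of the 12 arrays, by accession, with producers in red and non-producers in blue. Points are single arrays, and short bars are the means of the 2 arrays of C24 and of Col-0. The dashed line is the highest value of the 15 bacterial control probe sets used here (9.6). Cvi stands at 1249.8, and the other 11 arrays lie between 6.4 and 71.7.

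The Cvi signal was 17.4-fold that of Da and 87.4-fold the median of the other 9 accessions (14.3). The lowest and highest accession means were 5.82 apart on the log2(signal + 16) scale, which understates folds of dim signals. The median span of all probe sets on this scale was 0.68 and the 99th percentile 2.45. Only 3 of the 22746 probe sets spanned more, and none of them was highest in Cvi. They were 255257_at, which no gene is named for (4.8 in RLD to 1927.7 in Ws), 262319_s_at, which lists more than 1 gene (2.45 in C24 to 1579.9 in Rsch), and ECS1 (9.6 in RLD to 2145 in Ws), and they are named here after their values were seen. Without Cvi the span of QQS was 1.97, which 1.91% of probe sets exceeded.

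With only 1 array for most accessions, neighbours in the order could be compared only with the differences between duplicate arrays. For this, the 500 probe sets nearest in level to each pair of accessions were taken, and each gap is set beside the 95th percentile of their duplicate differences. This describes the steps and is no test, since QQS was selected on these differences and the duplicates may share their plants. In the order Cvi, Da, Col-0, Ler, Stw, Sap, Ws, C24, RLD and Rsch, the step of 3.85 between Cvi and Da was the only one of the 9 steps larger than this level (0.86). Da and Col-0 were 0.45 apart and Col-0 and Ler 0.76 apart, against levels of 0.82 and 0.80, so neither gap exceeded its level. The steps from Ler down to Rsch were each at most 0.24. Among pairs that need not be neighbours, 13 of the 36 without Cvi were further apart than their level. These were Da above Ler, Stw, Sap, Ws, C24, RLD and Rsch, and Col-0 above the same accessions except Ler.

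The 2 accessions with duplicates differed in how well they repeated. QQS averaged 9.0 ± 1.56 in C24 and 49.2 ± 16.3 in Col-0 (SD, n = 2 arrays each). The second array was lower by a log2 difference of -0.13 in C24 and -0.51 in Col-0, and 89.0% of probe sets differed less than that between the Col-0 arrays. The arrays of C24 (10.1 and 7.9) and of Col-0 (60.7 and 37.7) did not overlap. Since the C24 mean was not above the bacterial controls, no ratio is given. The difference on the log2(signal + 16) scale was -1.36, and its size depended on the constant added (-2.30 with 1 and -0.63 with 64).

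QQS levels of producers and non-producers overlapped. On the log2(signal + 16) scale producers averaged 6.09 ± 2.50 and non-producers 5.18 ± 0.49 (SD, n = 5 accessions each), a difference of 0.90. The producers ranged from 6.4 to 1249.8 (median 9.0) and the non-producers from 11.0 to 49.2 (median 16). At the low end the order is not to be read. The means of C24 (9.0), RLD (7.5) and Rsch (6.4) were not above the bacterial controls. Ws, the lowest non-producer, was 0.27 above Rsch, against a level of 0.81 from duplicate arrays. Without Cvi, producers averaged 5.03 ± 0.95 (SD, n = 4 accessions) and the difference was -0.15, so its sign rested on that accession.

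FPT2 (AT2G22960), the flavonol phenylacyl-transferase gene that the study is about, had another pattern over the same accessions. Its signal was 197.5 to 307.9 in the 5 producers, against 17.6 to 89.8 in the 5 non-producers (log2 difference 2.38, adjusted p = 0.0179 in limma over all 22746 probe sets). FPT2 was higher in producers in all 18 alternative settings, but in 10 of them it did not pass, namely with a pseudocount of 1, without Sap and Stw together, and without C24, Col-0, Cvi, Da, RLD, Rsch, Sap or Ws alone (adjusted p in limma from 0.000146 to 0.140 over the 18). In Cvi, where QQS was brightest, FPT2 (221.1) lay within the range of the other producers, and its Pearson r with QQS was 0.200 (Spearman rho -0.358, 10 accessions).

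The probe sets that ran with QQS were ranked by Pearson r over the 10 accession means. These points share their arrays and scaling, 8 of the 10 rest on 1 array, and Cvi, far from the rest, carries most of the weight in r. Of 22745 probe sets, 41 had an r of at least 0.9 (0.18%) and 20 an r of at most -0.9 (0.0879%), and the median r of all was -0.0223. Cvi was the highest accession in all 41 and the lowest in all 20. This is nearly fixed by choosing on r, since QQS stood far apart in Cvi. Over all probe sets Cvi was the highest in 11.9% and the lowest in 12.9%, shares that are no yardstick for probe sets so chosen. The rho of the 41 was lower, from 0.0314 to 0.760 with a median of 0.519. With Cvi left out, the r of the 41 ran from -0.440 to 0.887 with a median of 0.317, and none was still at 0.9 or above.

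Most of these probe sets were dim. In 33 of the 41 (80.5%) the mean signal was not above the bacterial controls, and in 21 (51.2%) it was not above them even in Cvi. Only 2 of the 41, AT5G28560 and SHN3, had accession means that spanned at least 1 on the log2(signal + 16) scale, as 4529 (19.9%) of all probe sets did. Of the 26 with a named locus, 5 (19.2%) were pseudogenes, against 7.36% of all 13436 probe sets with a named locus. These shares come from sets of unlike brightness, since only 19.4% of all probe sets had a mean not above the bacterial controls. The part of dim signal in the difference was not tested.

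The 10 closest by r alone were AT5G28560, AT1G71250, AT4G15690, AT5G28190, AT1G75600 and 5 probe sets without a gene name (245160_at, 256801_at, 257823_at, 266487_at and 259819_at), with r from 0.928 to 0.949. In 8 of them the mean signal was not above 9.6. AT4G15690, for example, read 4.1 in Cvi and 0.2 to 0.9 in the other accessions, all under the bacterial controls. The brightest, 259819_at, read 186.7 in Cvi and 126.7 to 142.0 in the other 9, while its C24 duplicates alone read 106.6 and 165.8, so the distance of Cvi was smaller than that between 2 arrays of 1 accession.

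AT5G28560, the closest of all (r 0.949, rho 0.648), was bright enough to read. Its signal was 69.5 in Cvi, against 7.2 to 14.95 in the other 9 accessions, 5.84-fold their median. Apart from Cvi it hardly varied, with a span of 0.41 over the other 9 accessions and an r of 0.515 with QQS there.

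Among probe sets whose accession means spanned at least 1, the 10 closest were AT5G28560, SHN3, AT3G05540, AT1G23050, AT2G47570, APL3, AT1G23120, AT3G24070, AT4G29550 and psbK, with r from 0.869 to 0.949. AT1G23050 and AT1G23120 lie near each other, with 8 loci between them in RefSeq order. SHN3, an AP2/ERF transcription factor that regulates cutin and wax synthesis, read 177.0 in Cvi and 62.2 to 101.8 in the other 9 (r 0.905, and 0.500 without Cvi). psbK, a small subunit of photosystem II encoded in the chloroplast, read 1781.5 in Cvi and 565 to 976.7 in the others (r 0.869, and 0.349 without Cvi). The green tissue marker RCA, the activase of the carbon-fixing enzyme Rubisco, read 2852.6 in Cvi and 2095.4 to 3085.2 in the others. Cvi was thus inside the range of the other accessions for RCA and above it for psbK.

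Several of the 10 had a weak or opposite r with QQS once Cvi was left out. AT2G47570 read 132.8 in Cvi and 11.15 to 26.6 in the other 9, and its r of 0.877 became -0.151 without Cvi. AT4G29550 read 87.5 in Cvi and 12.05 to 20.7 elsewhere, and its r of 0.871 became -0.286. AT1G23120 read 73.0 in Cvi and 1.4 to 14.1 elsewhere (r 0.875, and 0.159 without Cvi), with its C24 duplicates at 4.2 and 19.0. AT3G05540 read 35.1 in Cvi and 1.1 to 9.6 elsewhere (r 0.888, and 0.224 without Cvi). AT3G24070 lay nearer the middle, at 81.1 in Cvi and 26.3 to 48.6 elsewhere (r 0.874, and 0.548 without Cvi).

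AT1G23050 lost little of its r without Cvi (0.883 with it and 0.867 without), but it was dim. Its signal was 19.3 in Cvi and 14.3 in Da, 9.9 and 7.1 on the Col-0 arrays, and 1.2 to 5.35 in the means of the other 7 accessions. Only 3 of the 12 arrays, those of Cvi and Da and the first of Col-0, were above the bacterial controls.

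**Figure D2:**
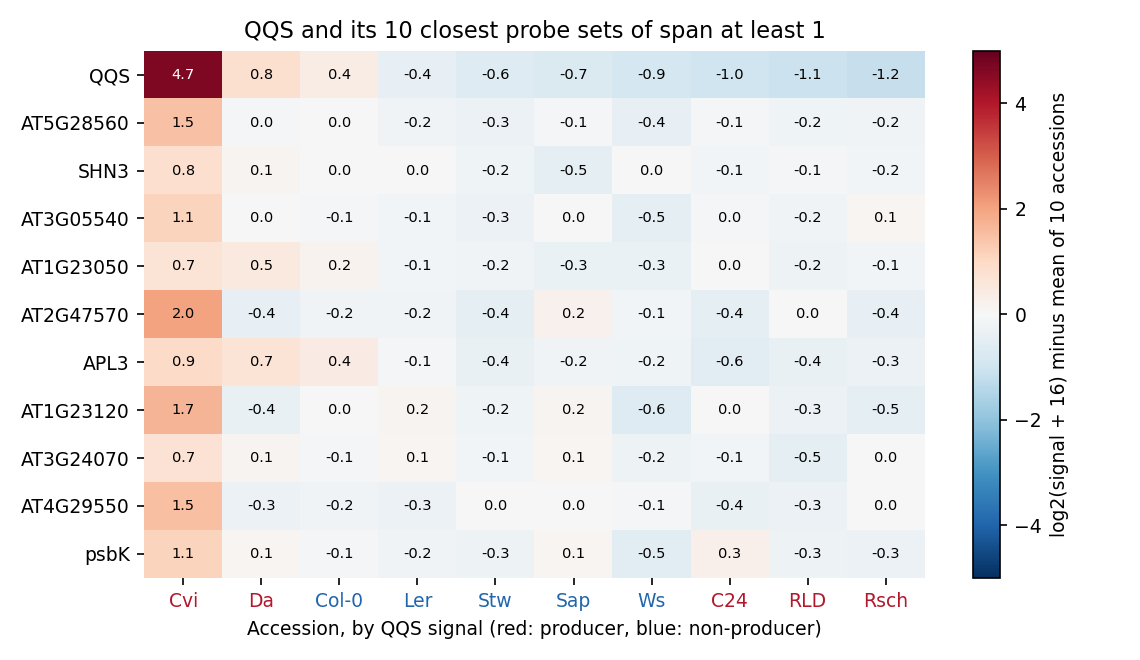
QQS and the 10 probe sets of span at least 1 with the highest Pearson r to it (rows) over the 10 accessions in the order of QQS signal (columns). Colours and numbers give log2(signal + 16) minus the mean of the 10 accessions. QQS is at 4.7 in Cvi and all 10 probe sets are highest there, while APL3 (0.7 in Da and 0.4 in Col-0) and AT1G23050 (0.5 and 0.2) are the rows in which both Da and Col-0 also stand clearly above the mean.

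The probe sets opposite to QQS were lowest in Cvi. The 5 probe sets of span at least 1 with the lowest r (-0.956 to -0.930) were 266588_at, 262196_at, 246754_at, AT3G14920 and 260593_at, and 4 of them have no gene name. The signal of 266588_at was 396.1 in Cvi and 909.0 to 1079.3 in the other 9 accessions, while that of 262196_at was 3.7 in Cvi and 39.4 to 113.0 elsewhere. AT3G14920 read 9.5 in Cvi and 34.4 to 53.4 elsewhere. Without Cvi the r of the 5 lay between -0.776 and -0.284.

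APL3 had a higher r with QQS without Cvi than with it, alone among the 10 closest of span at least 1. APL3 (AT4G39210) encodes a large subunit of ADP-glucose pyrophosphorylase, the enzyme that makes the sugar nucleotide from which starch is built. Its signal was 110.6 in Cvi, 89.4 in Da, 38.5 in Rsch, 35.6 in RLD, and 30.3 and 27.0 in C24. In non-producers it was 56.2 and 90.3 in Col-0, 46.1 in Ler, 42.2 in Sap, 40.9 in Ws and 35.4 in Stw. Cvi, Da and Col-0 were the 3 highest accessions for both genes, in the same order by their means. The order of Da and Col-0 was not resolved for either gene. The second Col-0 array (90.3) was above Da (89.4) for APL3. For QQS the gap of 0.45 was under the level of 0.82 from duplicate arrays.

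Over the 10 accessions APL3 had an r of 0.876 and a rho of 0.806 with QQS, which placed it 60th of all probe sets and 6th of those spanning at least 1. Without Cvi the r was 0.949 (rho 0.733, 9 accessions), 2nd of all probe sets and 1st of those spanning at least 1. Without Cvi and Da it was 0.888 (8 accessions), 30th of all. The size of the change differed between the genes, since APL3 spanned 1.505 on the log2(signal + 16) scale where QQS spanned 5.82.

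The duplicate arrays of Col-0 ran in opposite directions for the 2 genes. Between them APL3 was higher on the second (90.3) than on the first (56.2), a log2 difference of 0.56, where QQS differed by -0.51. Between the C24 arrays the differences were -0.11 for APL3 and -0.13 for QQS. APL3 was lower in both C24 arrays than in both Col-0 arrays, with a log2 difference of -0.97 (SE 0.24, n = 2 arrays each), which did not pass the adjustment over all probe sets (adjusted p = 0.461 in limma). Between producers and non-producers APL3 differed by 0.17 on the log2 scale (SE 0.29, adjusted p = 0.939 in limma).

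**Figure D3:**
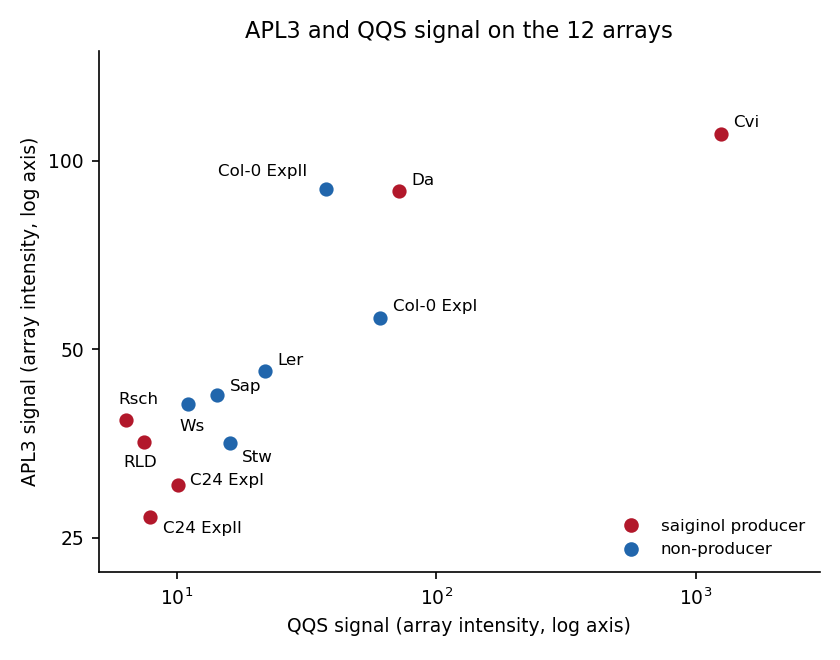
APL3 signal against QQS signal on the 12 arrays (array intensity, both axes log), with producers in red and non-producers in blue. Cvi is highest for both genes, Da and the Col-0 arrays come next, and the Col-0 arrays are reversed between the axes (QQS 60.7 and 37.7, APL3 56.2 and 90.3).

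**Figure D4:**
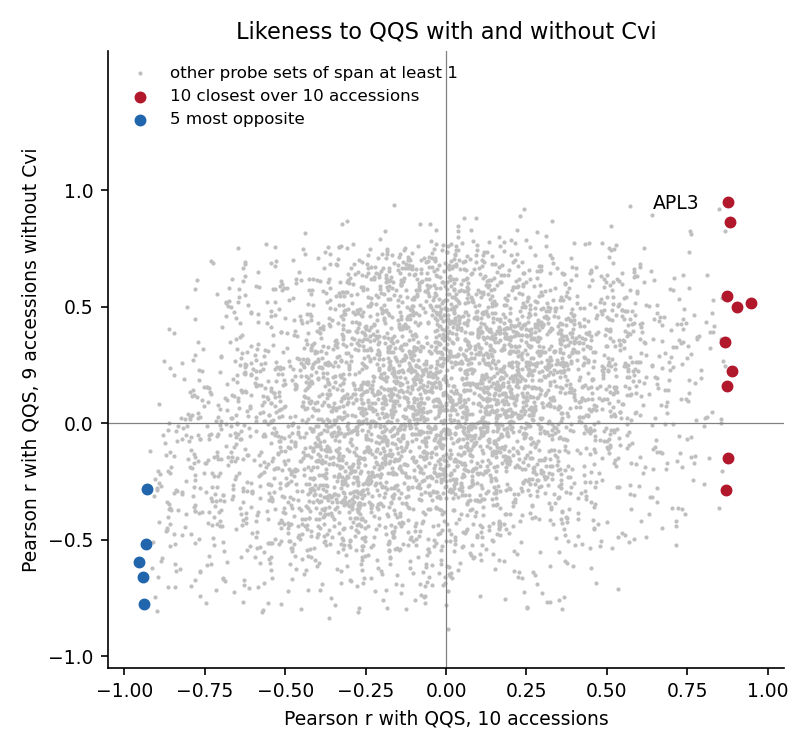
Pearson r with QQS over all 10 accessions (x axis) against the same over the 9 without Cvi (y axis), for each of the 4529 probe sets of span at least 1. The 10 closest (red) fall between -0.286 and 0.949 on the y axis, with APL3 at the top, and the 5 most opposite (blue) between -0.776 and -0.284.

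Once Cvi was set aside, other probe sets ran most closely with QQS. In this ranking 11 probe sets had an r of at least 0.9, none of them among the 41. The following were named after their values were seen. Several of the closest were dim. AT2G11210, the closest (r 0.962 without Cvi), 247333_at and AT2G07450 were above the bacterial controls on 0 of the 12 arrays. For scpl22 this held on 2 arrays and for AT2G22340 on 4. FIO1, an RNA methyltransferase gene, had an r of 0.944 without Cvi and of 0.379 with it, and read 65.7 in Da, 59.9 in Col-0 and 46.5 in Cvi against 34 to 49.4 in the other 7. AT4G18920 had an r of 0.938 without Cvi and read 74.8 in Da and 50.35 in Col-0 but 13.6 in Cvi, where it was lowest. AT3G22240 had an r of 0.934 without Cvi, with 405.2 in Da and 470.85 in Col-0, but its Col-0 duplicates read 719.1 and 222.6. The probe set 248905_at, which has no gene name, was highest in the same 3 accessions as APL3, with 263.0 in Cvi, 223.0 in Da and 203.1 in Col-0 against 91.25 to 108.4 in the other 7 (r 0.847, and 0.922 without Cvi).

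Pollen genes also leaned this way. All 4 that were measured (BUPS1, ANX1, ANX2 and ACT12) had a positive r with QQS over the 9 accessions without Cvi, with a median of 0.630, against a median of -0.0109 over all probe sets. ANX2, a receptor kinase of the pollen tube, read 43.0 in Da and 28.65 in Col-0 but 9.5 in Cvi, its lowest. Without Cvi and Da the r of the 4 ran from 0.291 (BUPS1) to 0.650 (ANX2), and over all 10 accessions from -0.266 to 0.0444. The C24 duplicates read 57.2 and 143.2 for BUPS1, 3.1 and 11.0 for ANX1, 10.0 and 34.4 for ANX2, and 30.5 and 29.9 for ACT12. ANX1 was dim, with accession means above 9.6 only in Da (13.0) and Ler (13.1). As markers of the same tissue, the 4 are not separate agreements. The part of pollen content in the pattern over the 9 accessions was not tested.

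Starch genes differed in their likeness to QQS. Of 42 starch genes listed, 7 had a probe set named for them, 4 of 19 for synthesis and 3 of 23 for breakdown. For synthesis the r was 0.876 for APL3, 0.275 for APL4, a further large subunit of the same enzyme, -0.276 for SBE2.2, a starch branching enzyme, and -0.567 for PTST1, a protein that targets granule-bound starch synthase to starch, with a median of -0.000489. For breakdown it was 0.231 for the alpha-amylase AMY1, -0.0323 for PWD, the phosphoglucan water dikinase that marks starch for degradation, and -0.0718 for DPE1, the disproportionating enzyme.

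In none of the other 6 starch genes was Cvi the highest accession. APL4 read 91.2 in Cvi and 55.2 to 102.9 in the other 9 accessions, with 40.8 and 109.8 on the Col-0 duplicates. PTST1 was lowest in Cvi (27.7) and next lowest in Da (33.3), against 36.3 to 70.8 in the other 8. The summed signal of the 4 synthesis genes was 389.7 in Cvi and 260.8 to 428.9 in the others, and that of the 3 breakdown genes was 450.7 in Cvi and 352.3 to 611.7 in the others. Cvi was thus inside the range of the other accessions on both sums.

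**Figure D5:**
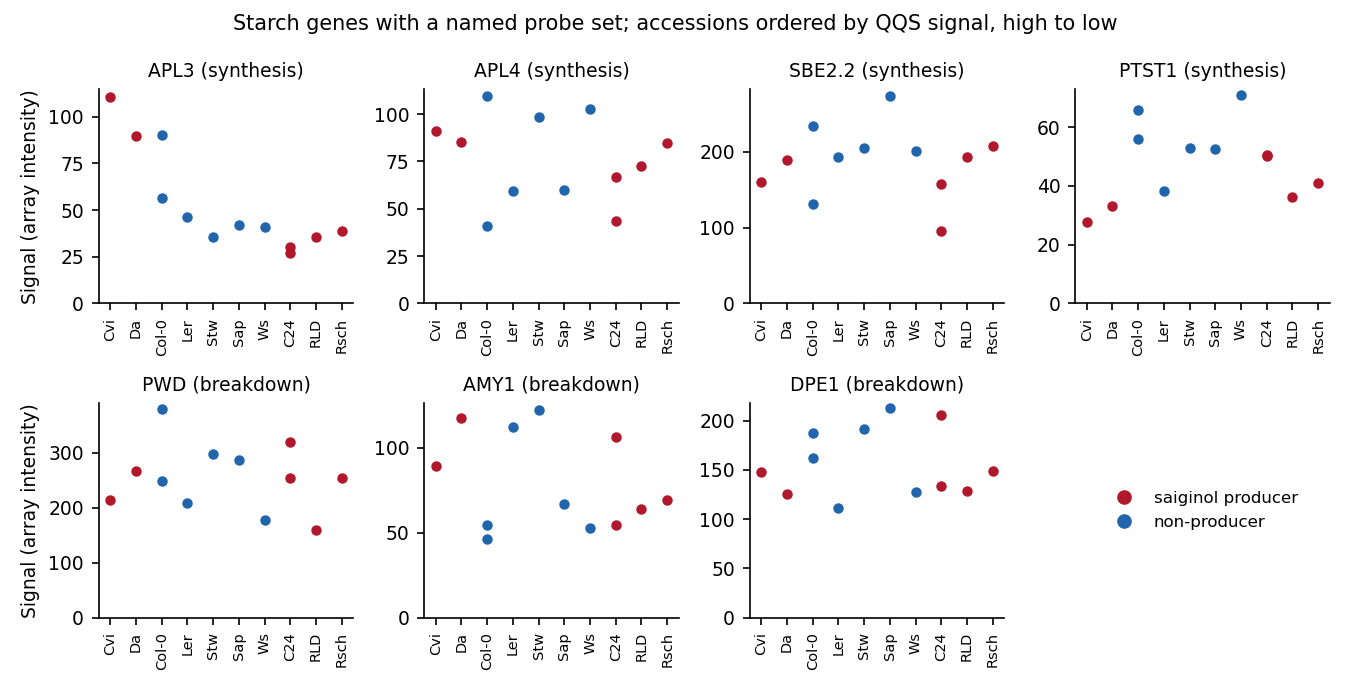
Signal (array intensity, linear axes from 0) of the 7 starch genes with a named probe set in the 10 accessions, ordered by QQS signal from high to low, with 2 points for Col-0 and for C24. APL3 is highest in Cvi (110.6), with Da (89.4) and the Col-0 arrays (56.2 and 90.3) next. PTST1 is lowest in Cvi (27.7), and for the other 5 genes Cvi lies inside the range of the other accessions.

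None of these genes passed the comparisons between groups. With limma, 4 of the 22746 probe sets (0.0176%) differed between producers and non-producers at an adjusted p under 0.05 (1765 before adjustment), namely FPT2 and 265044_at, which were higher in producers, and 251945_at and AT1G50570, which were lower. Of the 7 starch genes 0 passed, and 1 had an unadjusted p under 0.05, PTST1, at 27.7 to 50.35 in producers and 38.4 to 70.8 in non-producers (log2 difference -0.40, SE 0.14, adjusted p = 0.572 in limma). For C24 against Col-0 the calls were 263174_at (higher in C24) and 257008_at (lower), 2 of 22746 probe sets (0.00879%, and 1833 before adjustment), neither with a gene name. Again 0 of the 7 starch genes passed, and APL3 was the 1 with an unadjusted p under 0.05. The median log2 difference of the 7 was -0.10 for producers against non-producers and -0.21 for C24 against Col-0, beside medians of -0.014 and 0.0038 over all probe sets.

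The genes known to act with QQS or on its locus could hardly be read. None of 30 NF-Y subunit genes, NF-YC4 among them, and none of 9 other genes with known epialleles had a probe set named for it. Of 35 genes of DNA methylation and silencing only DME, a DNA glycosylase that removes methylcytosine, was measured. DME read 56.1 in Cvi and 37.5 to 65.3 in the other accessions, with an r of 0.286. MET1, DDM1, DRM2, CMT3 and ROS1 were not analysed here.

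On chromosome 3 QQS lies among pseudogenes. Of the 40 loci nearest to it in RefSeq order, 20 on each side, 34 are pseudogenes, against 14.2% of the 7622 loci of the chromosome, 4 are protein-coding and 2 give long non-coding RNA. The 3 nearest loci with a named probe set on each side were AT3G30660, AT3G30670 and AT3G30710 before QQS and AT3G30730, AT3G30740 and AT3G30750 after it, and 5 of these 6 are pseudogenes, all but AT3G30730.

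All of these neighbours except AT3G30740 were not above the bacterial controls on any array. Their accession means reached at most 12.7, for AT3G30740, which was above the controls on 4 arrays and read 8.8 in Cvi. AT3G30710, 12 loci before QQS, read 2.6 in Cvi and 0.8 to 2.95 in the others, and AT3G30730, 4 loci after it, read 3.1 in Cvi and 0.2 to 7.2 in the others. The r of the 6 with QQS lay between -0.257 and 0.540.

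Within 100 loci on either side, 52 probe sets named for other loci were measured, 37 of them for pseudogenes, with a median r of 0.0251. Cvi was the highest accession in 8 of the 52, beside 11.9% of all probe sets. The 2 with an r of at least 0.9 (0.18% of all had one), named after their values were seen, were the pseudogene AT3G30500 (15.4 in Cvi, 0.8 to 8.3 elsewhere) and AT3G30845 (3.9 in Cvi, 0.1 to 0.4 elsewhere). The second was under the bacterial controls on every array.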

How the data were processed

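Floral RNA of 10 accessions was hybridized to ATH1 arrays. The deposited table holds 1 linear signal intensity per probe set and array, which the authors had scaled before deposition: without the highest and lowest 2%, each array averages 100.01. The summarization software is not given in the sources used here, and array intensities give no counts or depth. Values ran from 0 to 6513.9.

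Names come from GEO's platform annotation, updated through RefSeq (TAIR10.1). It gives 1 gene for 13513 of the 22746 non-control probe sets, more than 1 for 503 and none for 8730, and 13436 have a RefSeq locus. Genes without a probe set named for them were not analysed here, while probe sets without a gene name stayed in the ranking and in the fits. Producer status follows the study's methods.

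Signals were taken as log2(signal + 16), and duplicate arrays were averaged per accession. Pearson r and Spearman rho with QQS were computed in Python with pandas and numpy and carry no p. Groups were compared over all 22746 probe sets in limma (3.58.1, under R 4.3.3) on 5 against 5 accession means or 2 against 2 arrays, and p-values were adjusted after Benjamini and Hochberg and called under 0.05. The ranking and the fit were tested on simulated data. Figures were drawn with matplotlib.

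The members and the 10 gene lists were chosen with earlier results of these data known. Genes named are QQS, the 10 probe sets with the highest r, the 10 highest and 5 lowest with a span of at least 1, the 3 nearest measured loci on each side, the 3 members of each list with the largest absolute r, and FPT2. APL4, ACT12, the probe sets that passed in limma and those so marked in the text were named after their values were seen. Alternatives covered pseudocounts, normalization, filters, single duplicates, a random block, a replicate block, Spearman's rho and omission of accessions or arrays.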

Additional observations from a re-analysis of the deposited data

Results flagged for a closer look

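The highest and lowest accession among the 5 producers and among the 5 non-producers were set against the other 4 for QQS and 35 probe sets described above. The gap to the nearest other accession, divided by the whole range on the log2(signal + 16) scale, exceeded Dixon's critical value for 5 values (0.71) in 13 of 72 groups. Chance flags about 1 in 20 groups, but 15 of these probe sets were chosen for running with or against QQS, which stood apart in Cvi, so the number is not to be read against that rate.

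Cvi stood apart in 8 of the 13, all among probe sets chosen for following or opposing QQS, where such flags describe the choice and test nothing. It was high for AT5G28560 (69.5 against 11.1 to 14.1 in the other producers, gap 0.909 of the range), AT2G47570 (132.8 against 11.15 to 19.9, 0.835), AT4G29550 (87.5 against 12.05 to 19.7, 0.813), AT1G23120 (73.0 against 3.3 to 11.6, 0.79), AT3G05540 (35.1 against 4.8 to 9.6, 0.769) and SHN3 (177.0 against 80.3 to 101.8, 0.71). It was low for 260593_at (3.5 against 29.7 to 37.3, 0.849) and 266588_at (396.1 against 914.3 to 1079.3, 0.833). For QQS, selected on these values and so given only as a description, the gap of Cvi was 0.662 of the range among producers. Da (71.7) also stood above C24, RLD and Rsch.

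Other accessions stood apart in 5 groups. C24 was high for AT3G30660 (3.9 against 0.4 to 1.0, 0.802) and Stw for AT3G30750 (2.5 against 0.3 to 0.8 in the other non-producers, 0.761), both far under the bacterial controls. Col-0 was low for RCA (2095.4 against 2808.2 to 3085.2, 0.76), Rsch for A9 (247.6 against 490.1 to 634.35, 0.746) and RLD for DME (37.9 against 50.9 to 56.1, 0.735).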

How the results depend on the processing

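The QQS span was 7.40 with a pseudocount of 1 and 4.22 with 64, and 1.97 to 5.82 with each accession left out, lowest without Cvi. The producer difference of 0.90 ranged from -0.15 (without Cvi) to 1.30 with 1 accession left out. C24 minus Col-0 was -2.30 with a pseudocount of 1 and -0.63 with 64. The 41 probe sets with an r of at least 0.9 became 5 with a pseudocount of 1, 80 with 64, 22 with median centring, 8 without the lowest 25% of mean signals, 26 among probe sets that list 1 gene, 10 by Spearman's rho, 98 without Sap and Stw, and 11 to 78 with each accession left out. The r of AT2G47570 ranged from -0.151 (without Cvi) to 0.937 and that of AT4G29550 from -0.286 (without Cvi) to 0.934 with each accession left out. The r of APL3 stayed between 0.870 and 0.949 with each accession left out. It was 0.899 with only the first duplicate arrays and 0.815 with only the second. With a pseudocount of 1 it was 0.903, and with 64 it was 0.834.

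Between producers and non-producers the 4 calls became 0 with a pseudocount of 1, 0 without Sap and Stw, 2 among probe sets that list 1 gene, and 0 to 7 with each accession left out. Between C24 and Col-0 the 2 calls became 0 with a pseudocount of 1, 4 with quantile normalization, 19 with median centring, 62 without the lowest 25% and 0 among probe sets that list 1 gene, and 0 with any 1 array left out. The titles do not say whether ExpI and ExpII name experiments that C24 and Col-0 shared. The differences between the arrays of C24 and those of Col-0 correlated at 0.150 over all probe sets. With only 2 pairs of arrays, this value cannot settle the question. A replicate block gave 0 calls. Settings with 0 calls had 1301 to 1934 probe sets at an unadjusted p under 0.05 for producers against non-producers and 763 to 3486 for C24 against Col-0. No starch gene passed in any of these settings.

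Accessions other than C24 and Col-0 rest on 1 array each, and signals under 9.6 carry no order. The probes follow the Col-0 genome, and the part of sequence differences under them was not tested.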
